A study of Arabidopsis thaliana with 18 samples.

Results

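The genes described here act between the gibberellin hormone and its target proteins in Arabidopsis thaliana: the receptor genes GID1A, GID1B and GID1C, the F-box genes SLY1 and SLY2, and SPY. They were chosen by name, with earlier results of these data known. Each of the 6 genes was read by 1 of the 22810 probe sets of the Affymetrix ATH1 array. RNA came from whole plants aged 14 days. Those plants were either Col-0 or etr1-1, a line in the Col background whose dominant ethylene receptor allele makes it insensitive to ethylene. Plants were sprayed with water and harvested at 0 h or 1 h, or sprayed with GA4, a bioactive gibberellin dissolved in water, and harvested at 30 min, 1 h or 3 h. The 4 groups at 1 h (each genotype with each spray) had 3 arrays each, and the 6 other groups had 1 array each, which makes 18 arrays in 10 groups. Array titles begin with DV001 (10 arrays, 1 of each group) or DV002 (8 arrays, replicates 1 and 2 of the groups at 1 h), and the labels do not say what this prefix stands for. Nothing in the labels tells whether the replicates came from different plants. The p-values therefore reflect the variation among these samples alone, and part of it may be technical.

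Gibberellin binds a GID1 receptor in the nucleus and cytosol, and the occupied receptor then binds DELLA proteins, which hold back growth. The F-box protein SLY1 brings DELLA proteins bound to the receptor to a ubiquitin ligase, after which they are degraded by the proteasome, and SLY2 (also called SNEEZY) is a related F-box protein that can stand in for it. SPY is an O-fucosyltransferase that modifies DELLA proteins, and plants that lack it behave as if their gibberellin signal were raised. In Arabidopsis, gibberellin is known to lower the transcripts of some of its own receptors, a negative feedback on the pathway.

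Values are array intensities on a linear scale, already set to a common level, with the mean of every array trimmed by 2% at each end close to 100. All 6 genes passed the filter on dim probe sets, which used the mean over the 18 arrays and not each array. A level can be compared between arrays for 1 gene but not between genes, since each probe set has its own affinity. The plants were sampled whole, so fewer cells of a type and less RNA per cell cannot be told apart. Of the markers chosen to check the label, RCA (2148 to 3331 units) and LHCB4.1 (2603 to 3671 units), which are shoot genes, were bright on every array. The root gene BGLU23 lay between 2261 and 2934 units, and the root hair genes EXPA7 and EXPA18 were dimmer, between 34.4 and 75.2 units. No other shoot or root marker, and none of the 6 seed and flower markers, had a probe set naming it alone. Such markers may still be on the array, since many probe sets had no gene listed.

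None of the 6 genes passed the test between genotypes, between sprays or between times. The lowest levels relative to 0 h were those of the receptor gene GID1B at 30 min and 3 h after GA4, and its difference missed the adjusted threshold. GID1A (AT3G05120), the first of the receptors, lay between 64.4 and 118.5 units over the 18 arrays, with a median of 96.7. In Col-0 it was at 106.4 units at 0 h, 85.4 at 30 min after GA4 and 97.8 at 3 h. At 1 h it was at 97.3, 74.5 and 70.6 units after water and at 102.3, 87.5 and 76.2 after GA4 in replicates 1, 2 and 3. These 2 sets of 3 arrays overlapped over most of their range.

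In etr1-1 GID1A was at 102.1 units at 0 h, 96.1 at 30 min and 109.8 at 3 h. At 1 h it was at 102.6, 64.4 and 118.5 units after water and at 102.9, 89.9 and 85.1 after GA4. The lowest and the highest of all 18 arrays thus both belonged to etr1-1 at 1 h after water, and the mean of that group was 95.2 ± 27.8 (SD, n = 3). The mean was 80.8 ± 14.4 in Col-0 after water, 88.7 ± 13.1 in Col-0 after GA4 and 92.6 ± 9.21 in etr1-1 after GA4 (SD, n = 3).

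GID1B (AT3G63010), the receptor with the widest spread of the 3, lay between 21.0 and 53.0 units with a median of 33.6. In Col-0 it was at 43.6 units at 0 h, 23.2 at 30 min after GA4 and 23.2 at 3 h. In etr1-1 it was at 33.8, 21.0 and 24.6 units at those times. Both genotypes were thus lower at 30 min and at 3 h after GA4 than immediately after water, in single arrays. These levels after GA4 were close to the filter's cut of about 20.0 units. No detection call was used, so whether they lie above background is not known.

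At 1 h GID1B in Col-0 was at 53.0, 42.0 and 26.7 units after water and at 31.9, 44.7 and 24.1 after GA4 in replicates 1, 2 and 3. In etr1-1 it was at 51.4, 41.4 and 33.3 units after water and at 40.3, 46.8 and 33.1 after GA4. Replicate 3, the array titled DV001, was the lowest of each group of 3. The group means were 40.6 ± 13.2 and 33.6 ± 10.4 in Col-0 and 42.0 ± 9.07 and 40.1 ± 6.85 in etr1-1 after water and GA4 (SD, n = 3), and the 4 groups overlapped.

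GID1C (AT5G27320), the third receptor, was steadier, between 23.9 and 38.7 units with a median of 33.1. In Col-0 it was at 38.7 units at 0 h, 24.1 at 30 min and 35.9 at 3 h, and in etr1-1 at 36.8, 29.7 and 23.9 units. The levels of 24.1 and 23.9 units were also close to the filter's cut. At 1 h the means were 35.2 ± 2.90 after water and 32.5 ± 0.964 after GA4 in Col-0, and 32.1 ± 5.07 and 31.0 ± 3.87 in etr1-1 (SD, n = 3). The lowest array at 1 h was etr1-1 after water, replicate 3, at 26.3 units, and the highest Col-0 after water, replicate 2, at 38.4, so the groups overlapped.

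SLY1 (AT4G24210), the main F-box gene of DELLA turnover, lay between 64.8 and 108.7 units with a median of 82.6. It was at 72.7 units at 0 h in Col-0, the lowest of the 10 group levels, and at 97.0 in etr1-1, the highest. At 1 h in Col-0 it was at 91.5, 81.5 and 81.7 units after water and at 78.9, 76.4 and 80.8 after GA4 in replicates 1, 2 and 3, and in etr1-1 at 85.8, 89.9 and 108.7 after water and at 83.4, 64.8 and 96.6 after GA4. In Col-0 the 3 arrays after GA4 all lay below the 3 after water, while in etr1-1 the sprays overlapped. Such a separation was seen for 1 of the 6 genes and for 1.46% of tested probe sets in Col-0, and the opposite one for 0 of the 6 and 2.76%. The means were 84.9 ± 5.72 after water and 78.7 ± 2.21 after GA4 in Col-0, and 94.8 ± 12.2 and 81.6 ± 16.0 in etr1-1 (SD, n = 3). At 30 min after GA4 SLY1 stood at 92.0 units in Col-0 and 94.0 in etr1-1.

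SLY2 (AT5G48170), its relative, lay between 22.5 and 44.3 units with a median of 32.5. It was at 30.2 units at 0 h, 35.1 at 30 min and 32.4 at 3 h in Col-0, and at 34.9, 44.3 and 32.2 in etr1-1, so the array at 30 min after GA4 was the highest of these 3 in both genotypes. At 1 h the means were 29.3 ± 6.09 after water and 30.3 ± 8.02 after GA4 in Col-0, and 29.7 ± 2.70 and 36.3 ± 1.89 in etr1-1 (SD, n = 3). In etr1-1 the 3 arrays after water (27.1 to 32.5 units) lay below the 3 after GA4 (34.1 to 37.6), while in Col-0 the arrays after water (22.5 to 34.2) and after GA4 (23.9 to 39.3) overlapped. In etr1-1 this held for 1 of the 6 genes and for 2.45% of tested probe sets, and the opposite for 0 of the 6 and 2.95%.

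SPY (AT3G11540), the fucosyltransferase gene, varied least of the 6 in ratio, from 87.0 to 130.2 units with a median of 104.4. It was at 109.4 units at 0 h, 97.9 at 30 min and 103.2 at 3 h in Col-0, and at 91.6, 87.0 and 118.7 in etr1-1. At 1 h the means were 108 ± 12.6 after water and 117 ± 15.8 after GA4 in Col-0, and 106 ± 17.5 and 111 ± 10.0 in etr1-1 (SD, n = 3). The 4 groups overlapped.

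**Figure D1:**
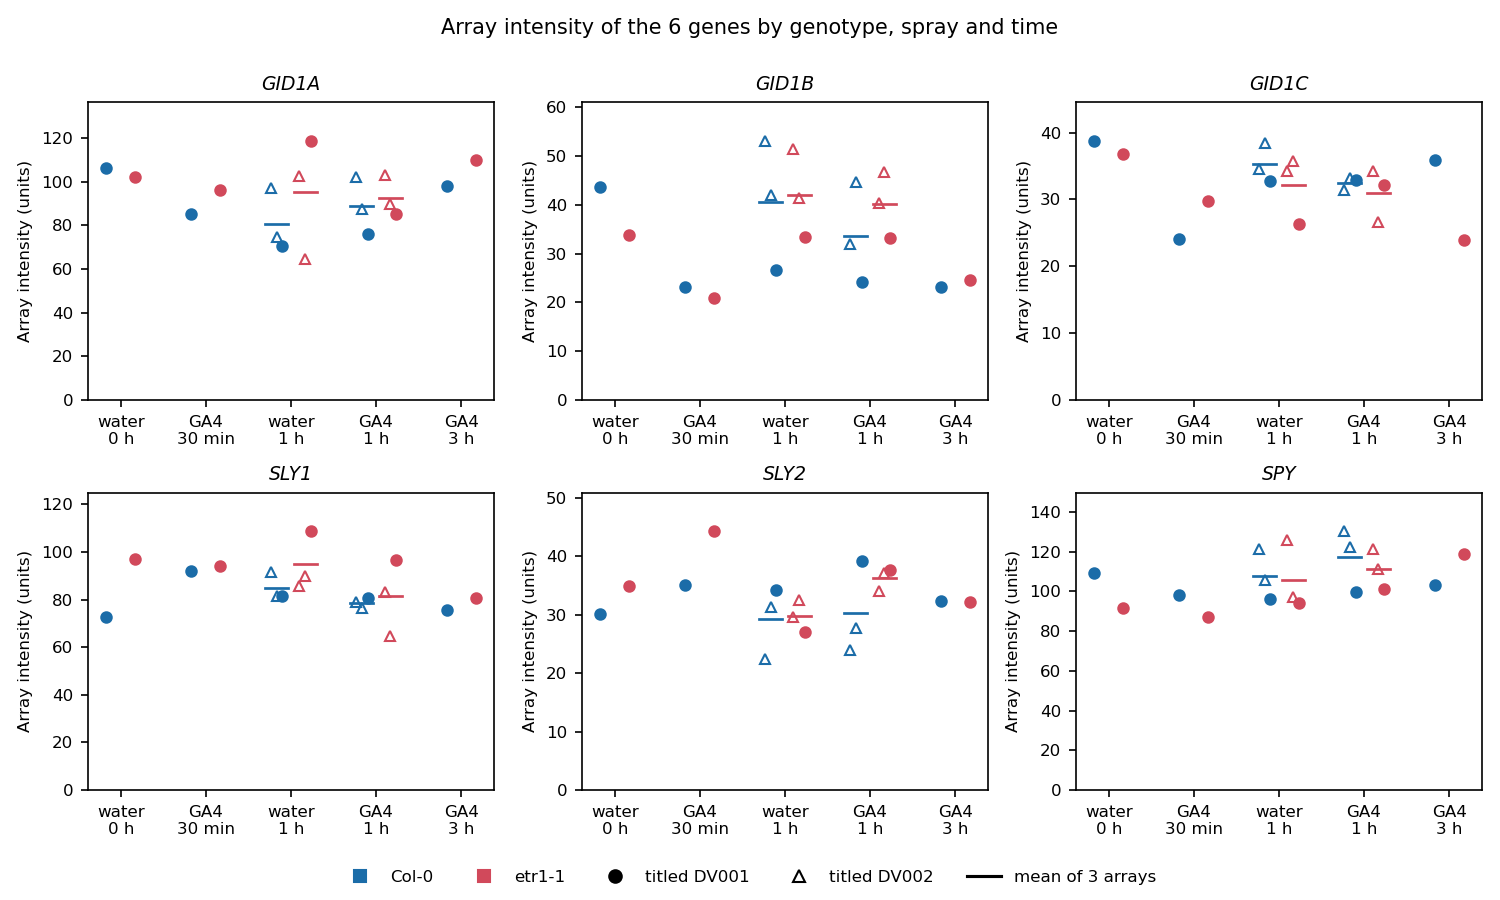
Array intensity (linear units, vertical axis from 0) of the 6 genes by spray and time (horizontal axis), 1 point per array, Col-0 in blue and etr1-1 in red. Filled circles are arrays titled DV001, open triangles arrays titled DV002, and bars are means of 3 arrays. GID1B is at 21.0 to 24.6 units at 30 min and 3 h after GA4 and at 33.8 and 43.6 at 0 h.

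The spread of the 6 genes was set against all 15922 probe sets tested, on the scale log2(intensity + 16) that all differences below use. For dim probe sets such as GID1B, GID1C and SLY2, this offset gives smaller differences than the intensities themselves would. Background signal at such levels was not measured. The standard deviation over the 18 arrays was 0.29 for GID1B, 0.20 for GID1A, 0.16 for SLY2, 0.15 for SPY, 0.15 for SLY1 and 0.14 for GID1C, and the median over all tested probe sets was 0.20. GID1B therefore varied more than 82.5% of tested probe sets and GID1C more than 16.9%. When the 10 group means of a gene are put in order there are 9 gaps between neighbours, and these were read against the pooled standard deviation of the groups at 1 h. No gap exceeded it for GID1A, GID1B, SLY1 or SPY. For GID1C 1 gap did, between etr1-1 at 30 min and the lower Col-0 array at 30 min after GA4, and for SLY2 1 gap did, between etr1-1 at 30 min, the highest, and etr1-1 at 1 h after GA4. The means at 1 h include DV002 arrays and the other groups do not, and a prefix difference also widens this standard deviation. Neighbouring gaps can be small where the lowest and highest groups lie far apart. The gaps are thus a description and no test of the groups.

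The first comparison asked whether the ethylene-insensitive line differs from the wild type in these genes. Over all 5 spray and time conditions, GID1A differed by 0.10 ± 0.09, GID1B by 0.05 ± 0.10 and GID1C by -0.07 ± 0.07 between etr1-1 and Col-0 (log2, SE). The F-box genes SLY1 and SLY2 differed by 0.10 ± 0.07 and 0.11 ± 0.08, and SPY by -0.05 ± 0.07. In limma 0 of the 6 passed an adjusted p of 0.05, where 6.61% of all tested probe sets did. At an unadjusted p under 0.05 the count was 0 of the 6 and 3208 of 15922. The median of the 6 differences was 0.08 and that of all tested probe sets 0.01. The 95% intervals reached no further than 1.23-fold in either direction for any of the 6.

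Paired arrays of the 2 genotypes, with the same condition and replicate number, showed mixed signs. Of 9 such pairs SLY1 was higher in etr1-1 in 7, GID1A in 7, SLY2 in 6 and GID1B in 5, while SPY was lower in 6 and GID1C in 7. For SLY1 the mean difference was 0.20 over the 5 pairs titled DV001, all 5 of them above 0 (0.03 to 0.35), and -0.02 over the 4 titled DV002. For GID1A it was 0.20 and -0.02, and 1 pair carried the first of these, at 1 h after water (0.64). Without that pair the DV001 mean was 0.09 over 4 pairs. For SLY2 it was 0.02 and 0.22. GID1B had 0.04 and 0.06, GID1C -0.09 and -0.05 and SPY -0.04 and -0.07. The differences between the title prefixes were not tested.

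At 1 h after water the genotype difference was 0.18 ± 0.18 for GID1A, 0.05 ± 0.20 for GID1B, -0.10 ± 0.12 for GID1C, 0.13 ± 0.13 for SLY1, 0.02 ± 0.15 for SLY2 and -0.03 ± 0.14 for SPY (log2, SE). After GA4 it was 0.06 ± 0.18, 0.19 ± 0.20, -0.05 ± 0.12, 0.03 ± 0.13, 0.19 ± 0.15 and -0.06 ± 0.14 in the same order. Each gene kept its sign between the sprays. Arrays with the same replicate number deviated together, and whether the second set is an independent repeat was not tested. Limma called 0 of the 6 after water, where 0.214% of tested probe sets passed, and 0 of the 6 after GA4, where 0.201% passed. At an unadjusted p under 0.05 there were 0 of the 6 in either, and 858 and 1244 of all tested probe sets. The p-values given for genotype and spray at 1 h leave out the pairing by replicate number and are less sensitive for it.

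The second comparison asked what a GA4 spray did relative to a water spray at 1 h. In Col-0 the receptor genes differed by 0.12 ± 0.18 (GID1A), -0.18 ± 0.20 (GID1B) and -0.08 ± 0.12 (GID1C), the F-box genes by -0.09 ± 0.13 (SLY1) and 0.03 ± 0.15 (SLY2), and SPY by 0.11 ± 0.14 (log2, SE). In etr1-1 the receptors differed by -0.00358 ± 0.18, -0.05 ± 0.20 and -0.03 ± 0.12, the F-box genes by -0.19 ± 0.13 and 0.19 ± 0.15, and SPY by 0.07 ± 0.14. Limma called 0 of the 6 in Col-0 and 0 in etr1-1, and 0% of all tested probe sets passed in each. At an unadjusted p under 0.05 there were 0 of the 6 in either genotype, and 96 and 288 of all tested probe sets.

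Over both genotypes SLY1 had the difference with the smallest unadjusted p of the 6, -0.14 ± 0.09. It was lower after GA4 in 6 of 6 pairs of arrays with the same replicate number, by 0.01 to 0.39. The share of tested probe sets with such a pair count was not taken, so whether it is unusual is not known. SLY1 did not pass in the fit without the pairing (limma unadjusted p = 0.155), and its 95% interval ran from -0.34 to 0.06. That fit is less sensitive for leaving the pairing out, so its p-value is no evidence that SLY1 is unchanged. Over the alternatives, which include the replicate number as a term, the limma adjusted p was 0.948 or more. The unadjusted p with that term is not given here. SPY (0.09 ± 0.10) and SLY2 (0.11 ± 0.10) were higher in 5 of 6 pairs each, and GID1B (-0.11 ± 0.14) and GID1C (-0.05 ± 0.09) were lower in 4 of 6. GID1A (0.06 ± 0.13) was higher in 5 of 6 pairs. Limma called 0 of the 6 over both genotypes, with 0% of all tested probe sets passing and 255 under an unadjusted p of 0.05.

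Within the title prefixes, the GA4 difference of SLY1 was -0.17 over the 4 pairs of DV002 and -0.08 over the 2 pairs of DV001. For GID1A it was 0.16 and -0.16, and for GID1C -0.13 and 0.10, opposite in sign between the prefixes. For GID1B it was -0.15 and -0.05, for SLY2 0.05 and 0.23 and for SPY 0.10 and 0.07. None of these differences between prefixes was tested.

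The third comparison, which the title of the study names, asked whether the GA4 response depends on ethylene perception. The response in etr1-1 minus that in Col-0 was -0.12 ± 0.25 for GID1A, 0.14 ± 0.28 for GID1B, 0.05 ± 0.17 for GID1C, -0.10 ± 0.19 for SLY1, 0.17 ± 0.21 for SLY2 and -0.04 ± 0.19 for SPY (log2, SE). Limma called 0 of the 6 and 0% of tested probe sets, with 0 and 112 at an unadjusted p under 0.05. The lack of overlap between sprays for SLY2 in etr1-1 and for SLY1 in Col-0 is therefore not shown to differ from the other genotype. The widest 95% interval was that of GID1B, from -0.46 to 0.74, which leaves in differences in its response of up to 1.67-fold. Over these tests of genotype and of GA4 at 1 h, all 42 intervals of the 6 genes lay within 2-fold on that scale. For the dim genes GID1B, GID1C and SLY2 the bounds in intensity itself are wider, and they were not counted.

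**Figure D2:**
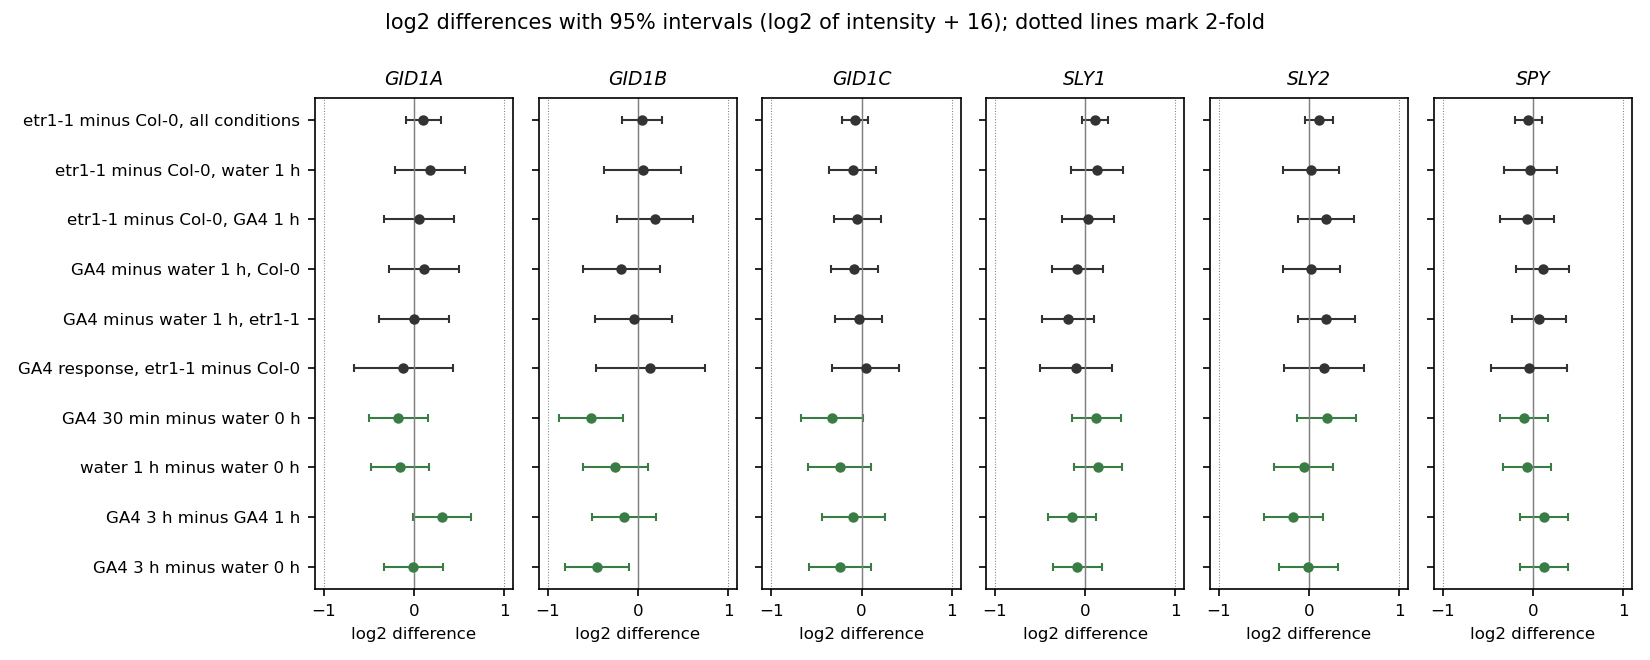
Differences of the 6 genes with 95% intervals from limma, on the log2(intensity + 16) scale (horizontal axis). Rows in black compare genotypes or sprays, rows in green compare times over both genotypes in the arrays titled DV001, and dotted lines mark 2-fold. Of the comparisons drawn, which leave out that of all later arrays with 0 h, only GID1B at 30 min and at 3 h after GA4 against 0 h has an interval that leaves out 0, and neither passed the adjusted threshold.

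Times were compared within the 10 arrays titled DV001, with the genotype as a term, so each condition had 1 array of each genotype and the spread is that between the genotypes' responses. At 30 min after GA4 against water at 0 h, GID1B had a log2 difference of -0.52 ± 0.16 (SE), 1.43-fold lower on this scale, and GID1C had -0.33 ± 0.16. GID1A had -0.17 ± 0.15, SPY -0.10 ± 0.12, SLY1 0.12 ± 0.12 and SLY2 0.19 ± 0.15. GID1B had an adjusted p of 0.137 in limma, which ran from 0.0975 to 0.683 over the alternative settings, so it did not pass in any of them. Without the Col-0 array at 0 h its difference was -0.33. That of GID1C was -0.15 without the Col-0 array at 30 min and -0.50 without the etr1-1 array. Limma called 0 of the 6, where 3.93% of tested probe sets passed. At an unadjusted p under 0.05 there were 1 of the 6 and 2228 of all. The median was -0.14 over the 6 and -0.03 over all tested probe sets.

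At 3 h after GA4 against water at 0 h, GID1B had -0.45 ± 0.16 (limma adjusted p = 0.215, with 0.171 to 0.743 over the alternatives) and GID1C -0.24 ± 0.16. Without the Col-0 array at 0 h GID1B had -0.26, and without the etr1-1 array at 3 h GID1C had -0.06. GID1A had -0.00699 ± 0.15, SLY2 -0.00576 ± 0.15, SLY1 -0.09 ± 0.12 and SPY 0.13 ± 0.12. Limma called 0 of the 6 against 2.86% of tested probe sets, with 1 of the 6 and 2284 of all at an unadjusted p under 0.05. From GA4 at 1 h to GA4 at 3 h, GID1A had the largest difference of the 6, 0.31 ± 0.15 with an adjusted p of 0.314 in limma, and limma called 0 of the 6 against 3.83% of tested probe sets. At an unadjusted p under 0.05 there were 0 of the 6 and 2768 of all.

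After a water spray alone the receptors had differences of the same sign over both genotypes, none of which passed. The single arrays of GID1A differed in sign, at -0.50 in Col-0 and 0.19 in etr1-1, and those of GID1B were at -0.48 and -0.01. At 1 h after water against 0 h, GID1B had -0.25 ± 0.16, GID1C -0.24 ± 0.16 and GID1A -0.16 ± 0.15, while SLY1 had 0.14 ± 0.12, SLY2 -0.06 ± 0.15 and SPY -0.06 ± 0.12 (log2, SE), with 0 of the 6 called in limma against 1.65% of tested probe sets. At an unadjusted p under 0.05 there were 0 of the 6 and 2131 of all. The value of GID1B was -0.06 without the Col-0 array at 0 h and -0.44 without the etr1-1 array. No water spray was among the samples at 30 min or 3 h. The differences at those times therefore hold both the spray and the GA4, which cannot be told apart. The 3 time comparisons that start at 0 h also share the 2 arrays at 0 h.

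The 2 arrays at 0 h were the highest of the 10 arrays titled DV001 for both GID1B and GID1C. For GID1B they stood at 43.6 and 33.8 units, and the 8 later arrays ran from 21.0 to 33.3 units. For GID1C they stood at 38.7 and 36.8 units, and the later arrays ran from 23.9 to 35.9. This was so for 2 of the 6 genes and for 4.49% of tested probe sets, and no gene of the 6 had both 0 h arrays lowest, as 3.91% of tested probe sets had. A comparison of all 4 later conditions with 0 h, added after these values were seen, gave -0.38 ± 0.13 for GID1B (adjusted p = 0.145, and 0.113 to 0.825 over the alternatives) and -0.24 ± 0.13 for GID1C (adjusted p = 0.353) in limma. It called 0 of the 6 against 4.36% of tested probe sets, with 1 of the 6 and 2836 of all at an unadjusted p under 0.05. The difference of GID1B was -0.19 without the Col-0 array at 0 h and -0.57 without the etr1-1 array at 0 h.

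The single arrays of each genotype show how far the 2 lines followed each other. For GID1B the difference at 30 min was -0.60 in Col-0 and -0.43 in etr1-1. At 1 h after water it was -0.48 and -0.01, and at 3 h after GA4 -0.60 and -0.29, each against 0 h. The Col-0 arrays thus stayed low from 30 min on, while the DV001 arrays of etr1-1 at 1 h (33.3 units after water and 33.1 after GA4) were close to the 0 h level of 33.8. At 1 h after water the genotypes differed by 0.21 in the DV001 pair, which the DV002 pairs did not repeat (-0.03 and -0.02). After GA4 they differed by 0.29 in the DV001 pair and by 0.23 and 0.05 in the DV002 pairs. Col-0 stood at 53.0 and 42.0 units after water and at 31.9 and 44.7 after GA4 in DV002. No DV002 array was taken at 0 h, so these levels cannot be set against that time. For GID1C the Col-0 differences were -0.45 at 30 min and -0.08 at 3 h, and those of etr1-1 were -0.21 and -0.40. For GID1A the DV001 arrays at 1 h after water differed from 0 h by -0.50 in Col-0 and 0.19 in etr1-1. This rests on replicate 3, at 70.6 and 118.5 units, since the genotypes differed by 0.07 and -0.17 in replicates 1 and 2.

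Over the steps from 0 h to 30 min, from 0 h to 1 h after water and from 1 h to 3 h after GA4, none of the 36 single-array differences of the 6 genes reached 2-fold, and they ran from -0.60 to 0.32. In Col-0 the share of tested probe sets that did was 1.62%, 0.76% and 0.779% in these steps, and in etr1-1 it was 1.51%, 0.44% and 0.835%. With an offset of 1 in place of 16 the largest, GID1B at 30 min in Col-0, was -0.88.

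**Figure D3:**
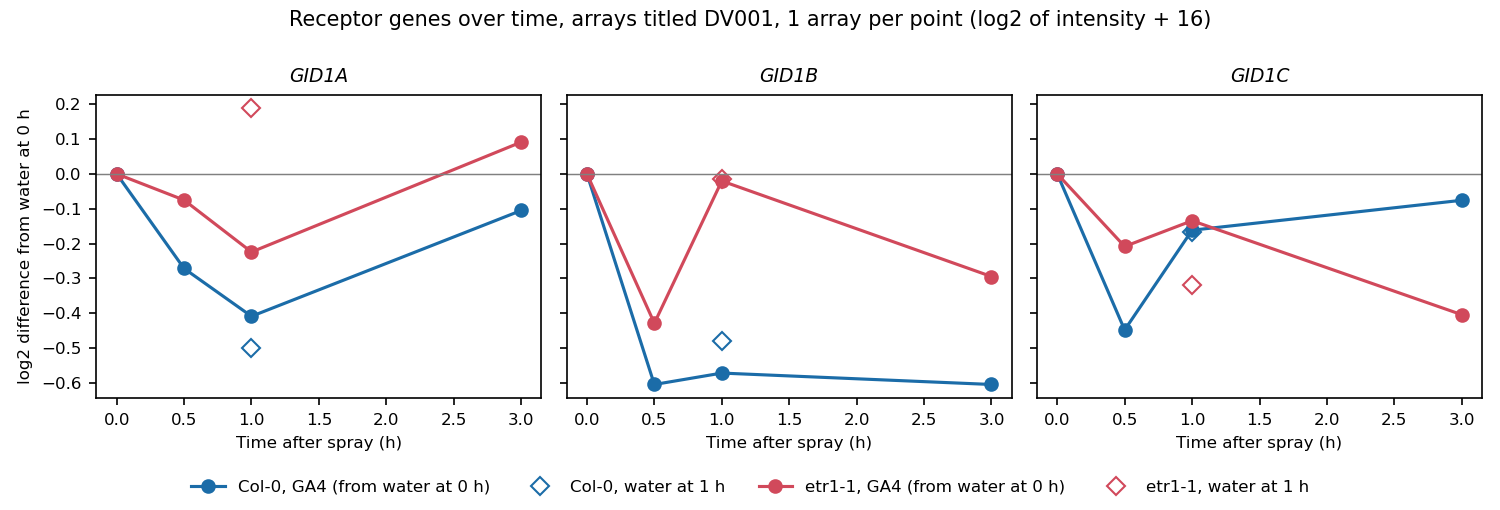
log2 difference from water at 0 h (vertical axis) against time after the spray (horizontal axis, h) for GID1A, GID1B and GID1C in the arrays titled DV001, 1 array per point. Filled points joined by lines are GA4 after the 0 h array, open diamonds are water at 1 h. GID1B at 30 min is at -0.60 in Col-0 and -0.43 in etr1-1.

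At 1 h the title prefix moved with the level of some of these genes, a comparison made after the values were seen. GID1B was lower on the DV001 array in all 4 groups, at 24.1 to 33.3 units against 31.9 to 53.0 on the 8 arrays titled DV002, a difference of -0.40 ± 0.10 (log2, SE, limma adjusted p = 0.0137). SPY was also lower in all 4 groups, at 94.2 to 101.1 units against 97.2 to 130.2, a difference of -0.22 ± 0.08 that did not pass (adjusted p = 0.0730). GID1A (-0.04 ± 0.13), GID1C (-0.08 ± 0.09), SLY1 (0.14 ± 0.09) and SLY2 (0.14 ± 0.10) did not pass. With 18.9% of all tested probe sets called between the prefixes, 1 of 6 is near the background and is not a result about these genes. The call of GID1B was lost when replicate 3 of Col-0 after water (adjusted p = 0.0695) or of Col-0 after GA4 (0.0558) was left out, and its adjusted p ran from 0.00751 to 0.0695 over all alternatives. SPY passed when replicate 2 of etr1-1 after water was left out (adjusted p = 0.0399), within a range of 0.0399 to 0.227.

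The 0 h levels of GID1B (43.6 and 33.8 units) lay within the range of the DV002 arrays at 1 h. No array titled DV002 was taken at 0 h, 30 min or 3 h, so the levels at those times can be compared only with other DV001 arrays.

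Of the 34 other genes of the gibberellin pathway listed for comparison (DELLA proteins and their partners, enzymes of gibberellin synthesis and inactivation, and SEC), 1 had a probe set naming it alone. It was SEC, an O-GlcNAc transferase related to SPY that also modifies DELLA proteins. The others may still be on the array, since 8730 probe sets had no gene listed and were not searched. SEC lay between 54.2 and 139.1 units with a median of 85.4, a wider span than that of any of the 6 genes in log2 units (1.14 against at most 0.90). Limma called it in no comparison of genotype, spray or time. Its level moved with the title prefix, from 54.2 to 87.5 units on the 4 arrays at 1 h titled DV001 and from 87.1 to 139.1 on the 8 titled DV002, a difference of -0.66 ± 0.12 (limma adjusted p = 0.00286, and 0.00299 to 0.0225 over the alternatives).

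Within the prefixes SEC differed between GA4 and water by -0.48 over the 2 pairs of DV001, both of them lower after GA4, and by 0.00792 over the 4 pairs of DV002. The pooled difference was -0.16 ± 0.21 and did not pass. SPY, its relative, had 0.07 and 0.10 in the same pairs, opposite in sign to SEC in DV001, a difference that was not tested.

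**Figure D4:**
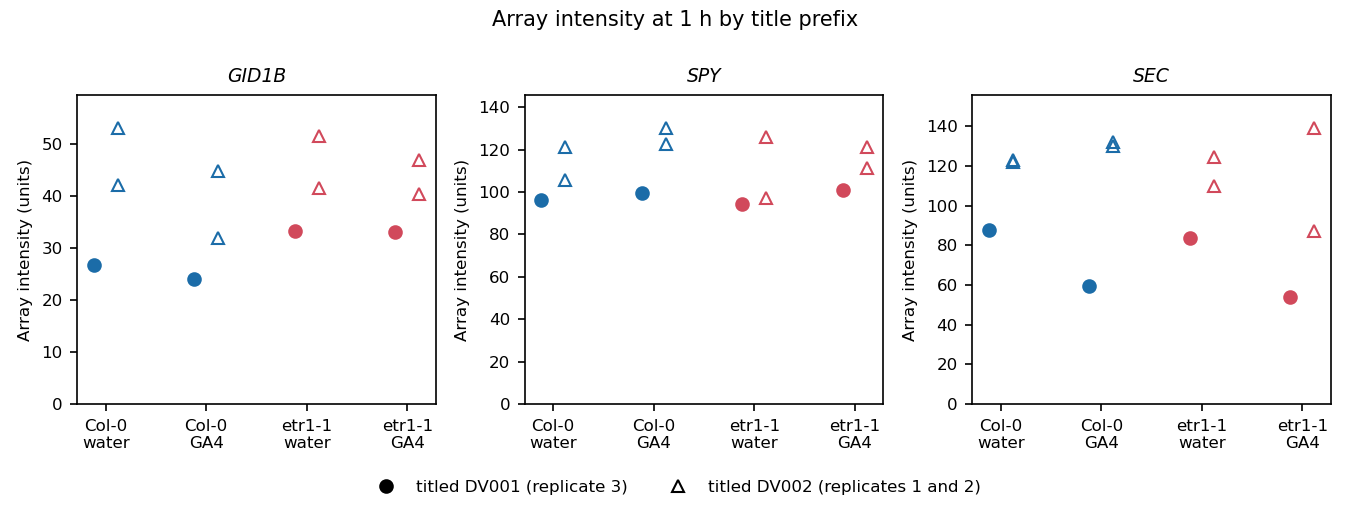
Array intensity at 1 h (linear units, vertical axis from 0) of GID1B, SPY and SEC in the 4 groups, 1 point per array, Col-0 in blue and etr1-1 in red. Filled circles are replicate 3, titled DV001, and open triangles replicates 1 and 2, titled DV002. In each of the 4 groups the DV001 array is the lowest for all 3 genes, as for SEC at 54.2 to 87.5 units.

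The 6 genes did not all vary together. Over the 18 arrays the Pearson correlations of their log2 values in 15 pairs ran from -0.63, between SLY2 and SPY, to 0.54, between GID1B and SPY, with a median of -0.13. Within the 10 arrays titled DV001 they ran from -0.63, between SLY1 and SPY, to 0.47, between GID1B and GID1C, with a median of 0.04. These are descriptions with no test, over arrays that share groups and title prefixes.

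Among 8766 other named probe sets, the patterns closest to each gene over the 18 arrays were taken as the 3 highest Pearson correlations, again as a description. For GID1B they were AT5G07910 (0.86), AT4G17260 (0.86) and AT5G05750 (0.86), and within DV001 alone these correlations were 0.89, 0.64 and 0.62. For GID1A they were AT3G53390 (0.80), the cytochrome P450 gene CYP71B28 (0.79) and AT1G80180 (0.76), and for GID1C AT1G26170 (0.68), AT3G09890 (0.68) and AT5G19920 (0.66). For SLY1 they were AT1G61780 (0.79), AT1G55160 (0.75) and AT1G01725 (0.71), and for SLY2 AT4G07450 (0.78), AT2G44580 (0.76) and AT1G47980 (0.75). For SPY they were AT1G67580 (0.89), AT5G03900 (0.89) and the F-box gene SLOMO (0.88). Within DV001 alone, in the same order, the correlations were 0.68, 0.78 and 0.73 for GID1A and 0.83, 0.65 and 0.85 for GID1C. They were 0.86, 0.72 and 0.70 for SLY1, 0.78, 0.54 and 0.26 for SLY2 and 0.73, 0.88 and 0.61 for SPY. Several of these correlations were thus lower within DV001 and others higher, such as those of GID1C with AT1G26170 and AT5G19920.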

How the data were processed

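The authors deposited a linear intensity for every probe set on each ATH1 array, hybridised with biotin-labelled cRNA per the labels' protocols. For the summarising software, a name was not given in the sources used here. Each array's mean after trimming 2% at each end was 100.007 to 100.008, and medians were 45.3 to 49.7, so no further scaling was applied. The number of arrays limits the precision.

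Of 22810 probe sets, 64 controls were left out, and those with a mean log2(intensity + 16) below percentile 30 (about 20.0 units) were filtered, which left 15922. Probe sets were named from the platform table where 1 gene was given (13513), with symbols updated through Entrez identifiers to RefSeq (TAIR10.1, 13436 matched). A further 503 were listed without naming 1 gene alone, and 8730 were not listed. Genes read only by those were not found here. Probe set coordinates are not used here.

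Fits used limma 3.58.1 (R 4.3.3), lmFit and eBayes with an intensity trend, with Benjamini-Hochberg adjustment over all tested probe sets and a threshold of 0.05. Genotype over all conditions used 18 arrays with the condition as a term, comparisons at 1 h used the 12 arrays at 1 h with 1 term per group, and times used the 10 arrays titled DV001 with the genotype as a term. The fits were tested on simulated data.

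Replicate numbers come from the labels. For all 18 pairs with the same number in different groups at 1 h, the deviations from the group means correlated at 0.13 to 0.70. Pairs with different numbers correlated at -0.52 to 0.20. Replicate 3 is the only DV001 array of each group at 1 h, so this number and the prefix cannot be told apart. Alternative settings were quantile normalization, an offset of 1 in place of 16, all probe sets unfiltered, eBayes without the trend, the replicate number or title prefix as a term, 1 prefix alone, and leaving out each array. The 6 genes are named in full, other pathway genes where measured, and the 3 most similar patterns per gene. The members and lists were chosen with earlier results of these data known.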

Additional observations from a re-analysis of the deposited data

How the results depend on the processing

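None of the 6 genes was called between genotypes, sprays or times, and this count of 0 held under every alternative run: quantile normalization, an offset of 1, unfiltered probe sets, eBayes without the trend, the title prefix as a term, DV001 alone (genotype over all conditions), DV002 alone (comparisons at 1 h), and leaving out each array. With the replicate block (the replicate number at 1 h, the array pair for genotype over all conditions) the count was also 0 of 6, so the block changed no call of these genes. Among all tested probe sets it raised the genotype calls from 34 to 224 after water at 1 h and from 32 to 297 after GA4. Over all conditions they rose from 1053 to 2286. The SEs, intervals and p-values of the main fits leave this pairing out and are less sensitive for it. No block could be fitted for the time comparisons, which have 1 array per group. The exception for the 6 genes was the comparison of title prefixes at 1 h, where the count of 1 ranged from 0 to 2 when single arrays were left out. Of 1610 log2 differences recomputed, SEC included, 2 lost and 1 gained a call, all in that comparison, and 85 uncalled differences changed sign. Single-array differences reaching 2-fold numbered 0 with an offset of 1 and with quantile normalization. With 1 array per group at 0 h, 30 min and 3 h, the time comparisons rest on 2 arrays a condition. The offset of 16 compresses the dim genes GID1B, GID1C and SLY2 most: for GID1B at 30 min the difference was -0.77 with an offset of 1 and -0.52 with 16.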
